A study of Mus musculus with 12 samples.

Results

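The genes described here are 9 mouse genes of RNA sensing and of the interferon response, out of the 35976 gene symbols in each count table. They are the sensors *Ddx58*, *Ifih1* and *Dhx58*, the adaptor *Mavs*, the transcription factors *Stat2*, *Irf7* and *Irf9*, and the interferon-stimulated genes *Isg15* and *Ifit1*. They were selected on their place in this pathway with differences between the groups of these same libraries already in view, so the values of *thia* and control testis below are a description of chosen genes. All 9 symbols were found in every table, and all 9 passed the filter on low counts in both generations.

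Pregnant outbred Swiss mice were gavaged with the neonicotinoid insecticide thiacloprid (*thia*) at 6 mg/kg/day, or with olive oil alone (0 mg/kg/day), from E6.5 to E15.5. The F1 embryos carried by these mice were exposed in the womb. The F3 embryos descended from the F1 through males that were mated in each generation with unexposed, unrelated females, and they were themselves not exposed. RNA was sequenced from testes at E15.5 in 4 groups of 3 libraries (F1 control, F1 *thia*, F3 control and F3 *thia*), and each library is 1 pool of the testes of 3 embryos. A pool is therefore the unit of replication. The study reports that the breeding from F0 to F3 was repeated, and the labels give neither the litters nor the run of breeding behind a pool.

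Cells recognise viral and some endogenous double-stranded RNA in the cytoplasm with RIG-I-like receptors, which are RIG-I (encoded by *Ddx58*), MDA5 (*Ifih1*) and LGP2 (*Dhx58*). RIG-I and MDA5 pass the signal to MAVS on the outer membrane of mitochondria, and kinases downstream of it activate IRF3 and IRF7, which switch on the genes of type I and type III interferons. Secreted interferon binds its receptor and activates a complex that holds STAT2 and IRF9, which binds the interferon-stimulated response element (ISRE) and raises the expression of interferon-stimulated genes, among them *Isg15*, *Ifit1* and the sensors themselves.

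The total count per library was 25081647 to 68996146, with 25081647 to 56638738 in F1 control, 37867969 to 62786622 in F1 *thia*, 35216128 to 40614301 in F3 control and 38415415 to 68996146 in F3 *thia*. Levels are given as CPM (counts scaled to the library total, with TMM factors over the 12 libraries), with the SD over 3 pools. F3 *thia* replicate 2 stood apart from the other pools. The chi-square per degree of freedom between its counts and those of F3 *thia* replicates 1 and 3 was 90.7 and 101, against 17.3 to 42.2 for the other pairs of replicates. Fold changes of the members, medians of the lists and values that this pool decides are therefore also given without it. Markers of germ cells, Sertoli cells and fetal Leydig cells were detected in all 12 pools, as the tissue label states. In a pool, fewer cells of a type and less RNA per cell cannot be told apart.

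Sequences upstream of the start sites were read for 8 of the 9 members from RefSeq (GRCm38.p6) as windows of 250 bases before and 50 bases after the start, with 2 windows for *Irf9* and none for *Dhx58*. They were searched on both strands for the core of the ISRE, spelled GAAANNGAAA, and for the gamma-activated site, spelled TTCNNNGAA. The ISRE core was found in 1131 of 32851 windows of all genes (3.44%) and in 5 of the 9 member windows (55.6%), those of *Isg15*, *Ifit1*, *Stat2*, *Ddx58* and *Ifih1*. The gamma-activated site was found in 8.30% of all windows and in 0 of the member windows. A match describes the letters only, and its absence says only that they are not in the window. The 250 bases upstream of 3 members are shown because they hold their matches before the start site, and the capitals mark the ISRE core on either strand. *Isg15* lies on the minus strand (chr4:156200819-156201068), *Stat2* on the plus strand (chr10:128270248-128270497) and *Ifit1* on the plus strand (chr19:34640639-34640888), and each sequence reads 5′ to 3′ along the gene.
Isg15: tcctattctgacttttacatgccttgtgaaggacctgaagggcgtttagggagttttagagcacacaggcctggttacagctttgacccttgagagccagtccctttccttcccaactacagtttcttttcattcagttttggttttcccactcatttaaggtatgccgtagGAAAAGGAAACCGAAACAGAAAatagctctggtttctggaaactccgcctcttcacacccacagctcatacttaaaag
Stat2: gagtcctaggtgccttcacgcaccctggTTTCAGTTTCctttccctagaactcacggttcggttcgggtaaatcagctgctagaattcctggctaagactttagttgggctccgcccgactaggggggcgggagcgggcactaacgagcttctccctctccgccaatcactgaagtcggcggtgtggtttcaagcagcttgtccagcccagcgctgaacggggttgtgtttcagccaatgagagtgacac
Ifit1: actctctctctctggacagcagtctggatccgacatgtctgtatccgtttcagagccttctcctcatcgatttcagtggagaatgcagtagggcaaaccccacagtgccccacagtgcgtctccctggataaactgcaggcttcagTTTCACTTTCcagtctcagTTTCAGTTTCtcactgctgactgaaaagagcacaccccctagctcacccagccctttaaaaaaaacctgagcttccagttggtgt

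*Isg15* had 3 matches that overlapped each other, from 78 to 57 bases before its start and on its own strand. *Ifit1* had 2 matches on the opposite strand, from 104 to 95 and from 85 to 76 bases before its start. The match of *Stat2* lay farther out, from 222 to 213 bases before the start. *Ddx58* and *Ifih1* had theirs after the start, at bases 3 to 12 and 33 to 42. The windows of *Mavs*, *Irf7* and *Irf9* had none. Among other genes of the pathway, 26 of 71 windows of interferon-stimulated genes (36.6%), 6 of 15 windows of other RNA sensors (40.0%), 11 of 20 of the interferons (55.0%) and 3 of 11 of antigen presentation (27.3%) held the ISRE core. The share was lower in the other lists, at 1 of 9 windows for DNA sensors (11.1%), 1 of 8 each for STAT and IRF factors and inhibitors of interferon signalling (12.5%), 2 of 30 for cofactors (6.67%), 0 of 19 for inhibitors of sensing and 0 of 8 for receptors and kinases. The gamma-activated site was in 2 of 30 windows for cofactors (6.67%), the lowest share of these 10 lists, and in 10 of 20 for interferons, the highest.

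**Figure D1:**
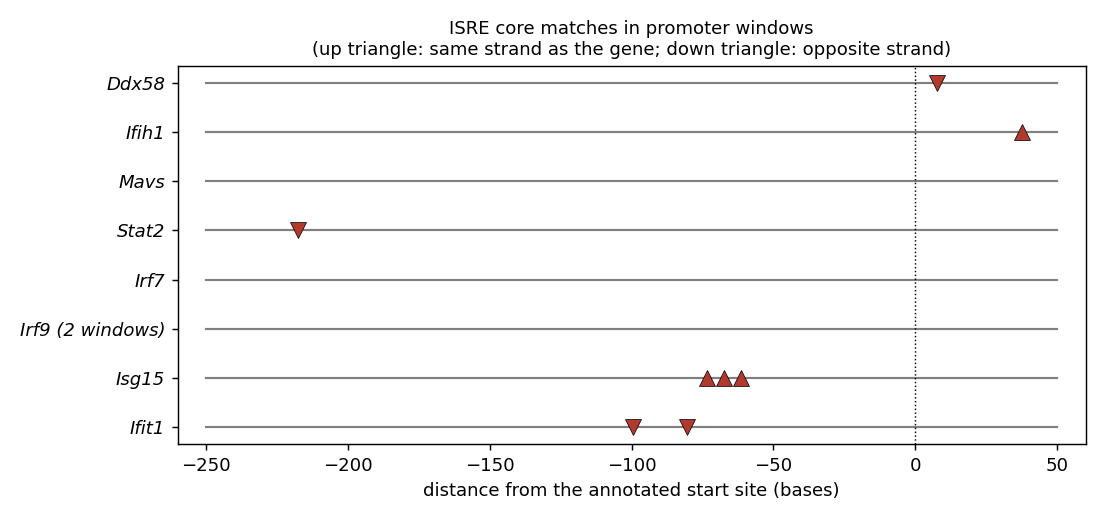
Positions of the ISRE core in the promoter windows of 8 members, against the distance from the RefSeq start site in bases (a line is 1 window, upward triangles are matches on the strand of the gene, downward triangles on the opposite strand). *Isg15* has 3 matches within 78 bases of its start and *Ifit1* has 2 within 104, whereas *Mavs*, *Irf7* and *Irf9* have none.

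In F3, all 9 members had a log2 fold change of *thia* over control testis above 0, as did 50.6% of the 18539 genes tested. In 7 of the 9 (*Ddx58*, *Mavs*, *Stat2*, *Irf7*, *Irf9*, *Isg15* and *Ifit1*), every *thia* pool lay above every control pool, against 13.4% of all genes. None of them passed an FDR of 0.1 with the quasi-likelihood test of edgeR, by which 0 genes (0%) were called in F3, and the smallest adjusted p of any gene was 0.101. At an unadjusted p under 0.05, the same 7 were higher, against 11.0% of genes. With the Wald test of DESeq2 at the same FDR, 6 of the 8 members that received an adjusted p were called higher, against 9.17% of genes. At an FDR of 0.15, chosen after the values were seen, edgeR called 4 higher (*Ddx58*, *Stat2*, *Irf9* and *Ifit1*), against 5.07% of genes. The median log2 fold change of the members was 0.48, and that of all genes was 0.00. Without F3 *thia* replicate 2, edgeR called 2 members (*Ddx58* and *Irf9*) at an FDR of 0.1, against 6.82% of genes. These counts are read against no chance level, because the members were chosen with this comparison known.

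In F1, 7 of the 9 members had a log2 fold change above 0, as did 52.0% of the 19137 genes tested. At an FDR of 0.15, edgeR called 0.0105% of genes and 0 of the 9 members. None had an unadjusted p under 0.05, against 8.76% of genes, and DESeq2 called 0 of the 9, against 1.01% of genes. The edgeR adjusted p of the members ranged from 0.580 to 0.978. The groups did not overlap in 1 member only, *Ddx58*, which was lower in *thia* testis, as were 8.45% of genes. The median log2 fold change was 0.27 for the members and 0.01 for all genes. An exact two-sided permutation test of 3 pools against 3 cannot give a p below 0.1.

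**Figure D2:**
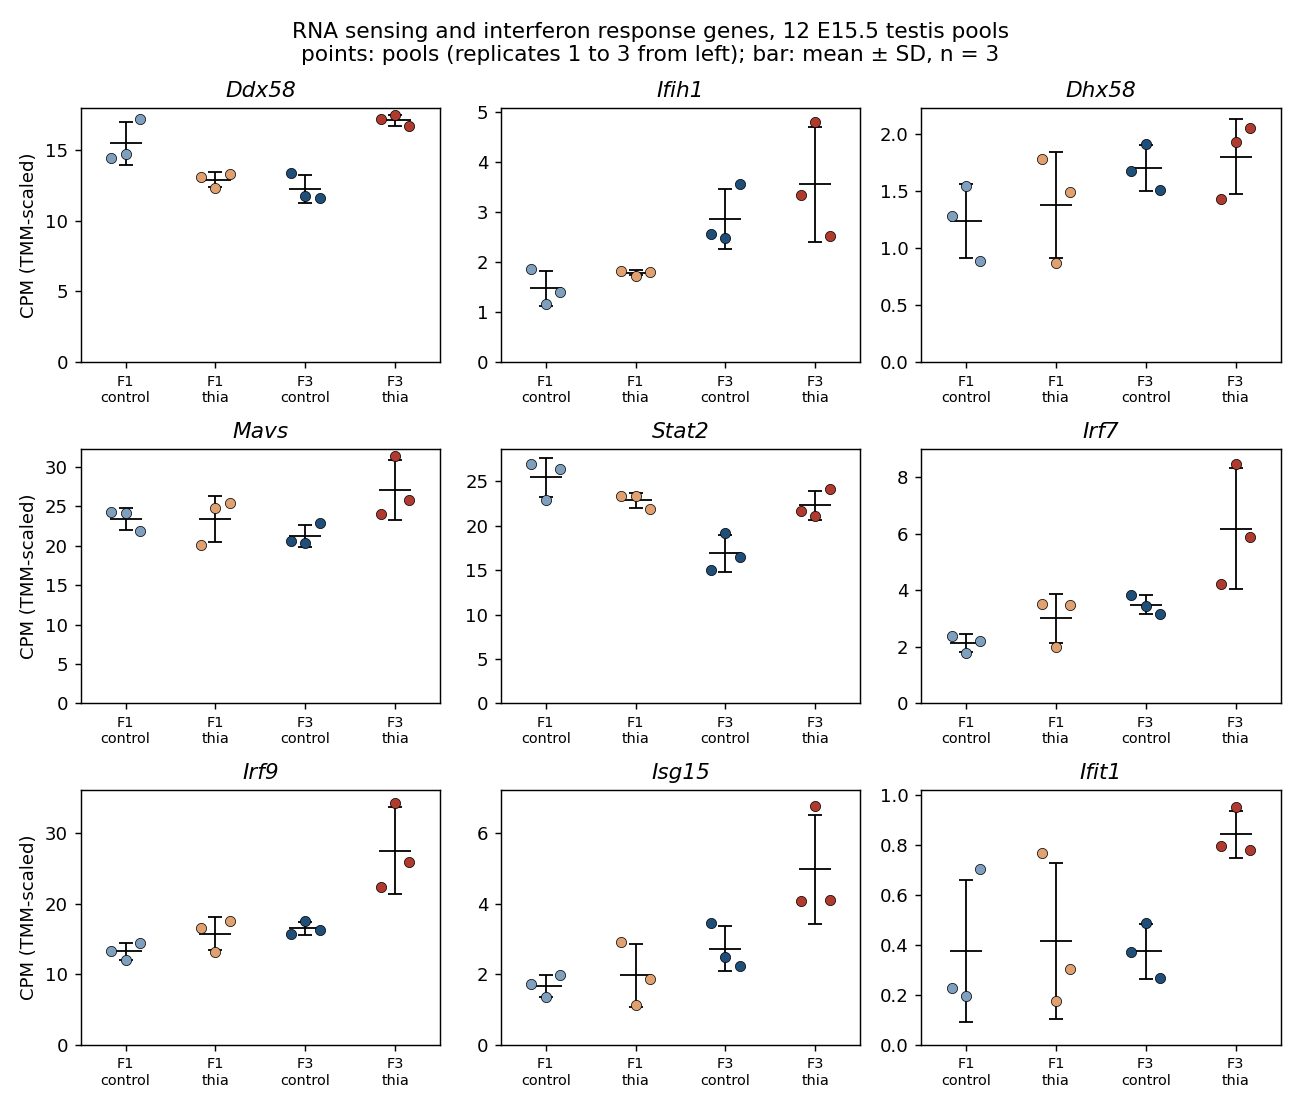
Level of each member (CPM, linear axis from 0) in the 12 pools, with points for replicates 1 to 3 from left to right and bars for the mean ± SD of 3 pools in each group. In 7 panels the 3 F3 *thia* points lie above the 3 F3 control points, and in F1 the groups overlap in every panel but that of *Ddx58*.

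Of the sensors, *Ddx58* (RIG-I, which binds short double-stranded RNA with a 5′ triphosphate) lies on chromosome 4 of mm10 from 40203773 to 40239828 on the minus strand. Its level was 14.4, 14.7 and 17.2 CPM in the F1 control pools and 13.0, 12.3 and 13.3 CPM in the F1 *thia* pools. In F3 it was 13.3, 11.7 and 11.6 CPM in control and 17.1, 17.4 and 16.6 CPM in *thia* pools. The groups were thus apart in both generations, with *thia* below control in F1 and above it in F3. The log2 fold change was -0.24 in F1 (standard error 0.113, edgeR adjusted p = 0.580) and 0.48 in F3 (standard error 0.101, edgeR adjusted p = 0.105, DESeq2 adjusted p = 0.00378). Without F3 *thia* replicate 2 it was 0.47 in F3, and the edgeR adjusted p was then 0.0935.

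*Ifih1* (MDA5, which binds long double-stranded RNA) lies on chromosome 2 from 62595798 to 62646255 on the minus strand. Its level was 1.48 ± 0.354 in F1 control and 1.79 ± 0.0501 CPM in F1 *thia* testis (SD, n = 3). In F3 the control pools were at 2.57, 2.48 and 3.56 CPM and the *thia* pools at 3.34, 4.80 and 2.53 CPM, so the groups overlapped. The log2 fold change was 0.29 in F1 and 0.30 in F3 (standard error 0.283, edgeR adjusted p = 0.585), and without F3 *thia* replicate 2 it was 0.02 in F3.

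*Dhx58* (LGP2, which lacks the signalling domain of the other two receptors and modulates them) lies on chromosome 11 from 100694884 to 100704271 on the minus strand, and its exons overlap the antisense gene *Dhx58os*. Its level was 1.24 ± 0.328, 1.38 ± 0.466, 1.70 ± 0.201 and 1.80 ± 0.328 CPM (SD, n = 3) in F1 control, F1 *thia*, F3 control and F3 *thia* testis. The groups overlapped in both generations. In F3 the log2 fold change was 0.09 (standard error 0.222, edgeR adjusted p = 0.853), and 0.04 without F3 *thia* replicate 2.

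*Mavs*, the adaptor on which the signals of RIG-I and MDA5 meet, lies on chromosome 2 from 131234063 to 131248025 on the plus strand. In F1 it was at 23.4 ± 1.40 in control and 23.4 ± 2.93 CPM in *thia* testis (SD, n = 3). In F3 the control pools were at 20.6, 20.3 and 22.9 CPM and the *thia* pools at 24.1, 31.4 and 25.9 CPM. The F3 groups did not overlap, with replicate 2 the highest of the *thia* pools. *Thia* differed from control there by a log2 fold change of 0.35 (standard error 0.123, edgeR adjusted p = 0.174, DESeq2 adjusted p = 0.0893), and 0.23 without F3 *thia* replicate 2.

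Among the transcription factors, *Stat2*, the STAT protein particular to type I and type III interferon signalling, lies on chromosome 10 from 128270559 to 128292849 on the plus strand. Its level was 25.4 ± 2.19 in F1 control and 22.8 ± 0.824 CPM in F1 *thia* testis (SD, n = 3), with overlapping pools and a log2 fold change of -0.14. In F3 the control pools were at 14.97, 19.1 and 16.5 CPM and the *thia* pools at 21.6, 21.1 and 24.1 CPM, with no overlap. In F3 the log2 fold change was 0.40 (standard error 0.118, edgeR adjusted p = 0.138, DESeq2 adjusted p = 0.0405), and 0.44 without F3 *thia* replicate 2. The mean in F3 *thia* testis was 22.3 ± 1.62 CPM (SD, n = 3), and its pools overlapped those of F1 control testis.

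*Irf9*, the DNA-binding partner of STAT2 at the ISRE, lies on chromosome 14 from 55603571 to 55610030 on the plus strand. Its level was 13.3, 12.1 and 14.4 CPM in F1 control and 16.5, 13.1 and 17.6 CPM in F1 *thia* pools. In F3 it was 15.6, 17.5 and 16.3 CPM in control and 22.3, 34.3 and 25.9 CPM in *thia* pools. The F3 groups were apart and the F1 groups overlapped. The log2 fold change was 0.27 in F1 (standard error 0.135, edgeR adjusted p = 0.589) and 0.74 in F3 (standard error 0.162, edgeR adjusted p = 0.105, DESeq2 adjusted p = 0.00153). Without F3 *thia* replicate 2 it was 0.55 in F3, and the edgeR adjusted p was 0.0734. Exons of *Irf9* overlap those of *Rnf31* on the same strand, and *Rnf31* was at 15.8 ± 0.869 in F3 control and 18.2 ± 1.62 CPM in F3 *thia* testis (SD, n = 3), with overlapping groups.

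*Irf7*, the factor that amplifies the transcription of interferon-alpha genes, lies on chromosome 7 from 141262706 to 141266481 on the minus strand. Its level was 2.13 ± 0.307 in F1 control and 3.00 ± 0.863 CPM in F1 *thia* testis (SD, n = 3), the groups overlapped, and the log2 fold change was 0.52 (standard error 0.251, edgeR adjusted p = 0.584). In F3 the control pools were at 3.84, 3.45 and 3.16 CPM and the *thia* pools at 4.20, 8.46 and 5.87 CPM. The lowest *thia* pool lay just above the highest control pool, and replicate 2 was the highest. The log2 fold change in F3 was 0.82 (standard error 0.266, edgeR adjusted p = 0.154, DESeq2 adjusted p = 0.0280). Without replicate 2 it was 0.54 (edgeR adjusted p = 0.201). Exons of *Irf7* overlap those of *Phrf1* on the opposite strand, which was at 50.8 ± 6.59 in F3 control and 62.6 ± 8.77 CPM in F3 *thia* testis (SD, n = 3), with overlapping groups. The strand setting of the count is not stated, so a share of reads from *Phrf1* in the *Irf7* count was not tested.

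Of the effectors, *Isg15* encodes a ubiquitin-like modifier that is conjugated to proteins after interferon, and it lies on chromosome 4 from 156199424 to 156200818 on the minus strand. Its level was 1.68 ± 0.312 in F1 control and 1.97 ± 0.895 CPM in F1 *thia* testis (SD, n = 3), with overlapping groups. In F3 the control pools were at 3.44, 2.48 and 2.23 CPM and the *thia* pools at 4.07, 6.76 and 4.10 CPM, with no overlap. In F3 the log2 fold change was 0.87 (standard error 0.276, edgeR adjusted p = 0.151, DESeq2 adjusted p = 0.0265). Without replicate 2 it was 0.59 (edgeR adjusted p = 0.197).

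*Ifit1*, whose protein binds viral RNA that lacks methylation of the cap, lies on chromosome 19 from 34640871 to 34650009 on the plus strand. It was the member with the fewest reads, with 7 to 52 counts per library. In F1 the pools were at 0.228, 0.197 and 0.704 CPM in control and 0.767, 0.173 and 0.304 CPM in *thia* testis, and 1 pool of each group stood above the rest. In F3 they were at 0.372, 0.485 and 0.266 CPM in control and 0.795, 0.949 and 0.779 CPM in *thia* testis, with no overlap. Its F3 log2 fold change was 1.16 (standard error 0.290, edgeR adjusted p = 0.115), the largest of the 9 members, and DESeq2 gave it no adjusted p. It was 1.07 without replicate 2. *Ifit1* has close copies in the *Ifit* cluster, and how reads shared with them were counted is not stated.

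**Figure D3:**
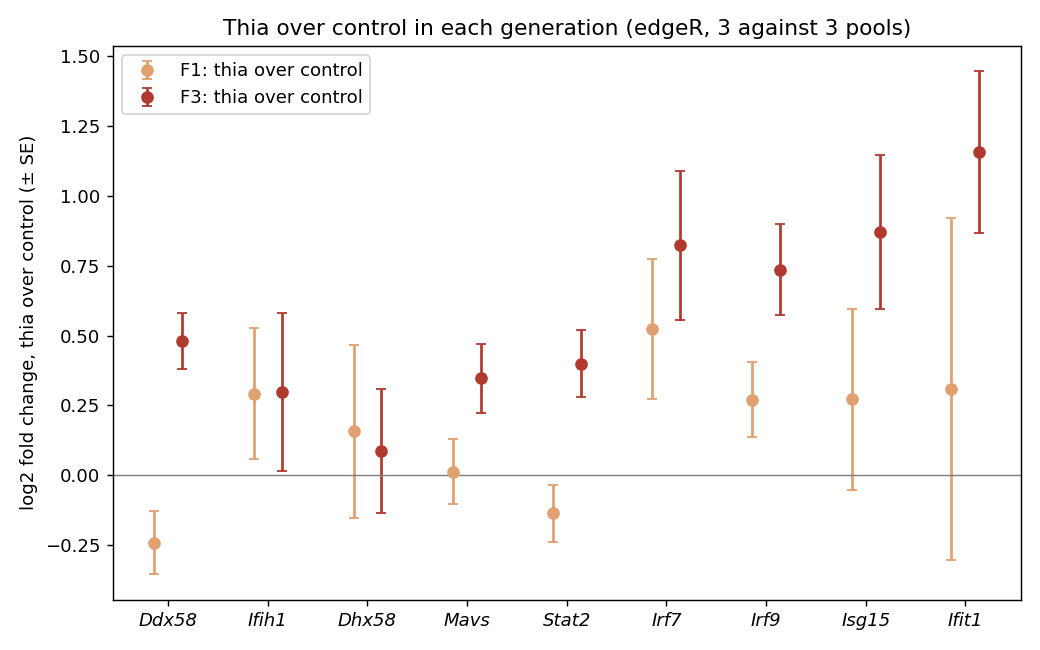
Log2 fold change of *thia* over control testis for each member in F1 and in F3 (points), with the standard error from edgeR as bars, each from 3 pools against 3. In F3 the 9 points lie between 0.09 and 1.16, and in F1 *Ddx58* and *Stat2* lie below 0.

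Levels were also put on a scale of CPM per kb of exon (GENCODE M21 exons joined per gene), a rough scale for comparing genes. Reads were counted on refGene models, so these lengths need not be those that took up the reads. The joined exons of *Irf7* (3776 bases) cover its whole gene from 141262706 to 141266481, so its level per kb may be understated. Those of *Irf9* (5386 bases) cover most of its gene from 55603571 to 55610030, so its level per kb may be understated too. The order below is that of these scaled values only. In F3 *thia* testis the order was *Mavs* (8.10 ± 1.14), *Isg15* (6.58 ± 2.04), *Irf9* (5.10 ± 1.14), *Stat2* (3.76 ± 0.273), *Ddx58* (2.42 ± 0.0572), *Irf7* (1.64 ± 0.568), *Dhx58* (0.551 ± 0.1003), *Ifih1* (0.436 ± 0.141) and *Ifit1* (0.317 ± 0.0354), each as mean ± SD of 3 pools. The pools of *Mavs* overlapped those of *Isg15*, those of *Isg15* overlapped those of *Irf9*, and those of *Ifih1* overlapped those of *Dhx58* and *Ifit1*, so these neighbours could not be ordered. In F1 control testis *Mavs* was also the highest at 7.01 ± 0.418 CPM per kb (SD, n = 3), and *Stat2* was next at 4.29 ± 0.370 CPM per kb (SD, n = 3). There *Irf9*, *Isg15* and *Ddx58* overlapped, with means of 2.46, 2.22 and 2.19 CPM per kb.

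The difference between the effect of *thia* in F3 and that in F1 was tested in a joint fit of the 12 libraries. With edgeR at an FDR of 0.1, 0 of the 9 members were called, against 0.00510% of genes. At an unadjusted p under 0.05, 3 members (*Ddx58*, *Stat2* and *Irf9*) had the more positive effect in F3, against 7.93% of genes. The difference on the log2 scale was 0.74 for *Ddx58* (standard error 0.144, edgeR adjusted p = 0.248), 0.55 for *Stat2* (standard error 0.152, edgeR adjusted p = 0.248) and 0.48 for *Irf9* (standard error 0.219, edgeR adjusted p = 0.349). DESeq2 called *Ddx58* (adjusted p = 0.00189) and *Stat2* (adjusted p = 0.0517), 2 of the 6 members to which it gave an adjusted p, against 2.85% of genes. For *Ifih1* and *Dhx58* the difference was 0.03 and -0.06, with standard errors of 0.371 and 0.401.

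The control testes of the 2 generations also differed. In F3 against F1 control testis, 4 of the 9 members were called by edgeR at an FDR of 0.1, against 42.3% of genes, and DESeq2 called 5, against 40.5%. *Ifih1* was higher in F3 (log2 difference 0.96, edgeR adjusted p = 0.0157), and so was *Irf7* (0.71, edgeR adjusted p = 0.0642). *Stat2* was lower in F3 (log2 difference -0.59, edgeR adjusted p = 0.00177), and so was *Ddx58* (-0.34, edgeR adjusted p = 0.0246). In 6 of the 9 the control groups did not overlap between generations, against 48.8% of genes. The share of members called was close to that of all genes. Generation and the preparation of the libraries cannot be told apart here. Markers of red blood cells summed to 5220 to 15442 CPM in the F1 control pools and 61986 to 66745 CPM in the F3 control pools. In the same order, macrophage markers summed to 79.5 to 95.6 and 159 to 260 CPM. Those of other leukocytes summed to 31.6 to 44.5 and 132 to 188 CPM. Sertoli cell markers were lower in F3, at 1239 to 1384 and 498 to 707 CPM. So were endothelial markers, at 250 to 306 and 174 to 196 CPM. Mesonephric duct markers were higher in F3, and the control groups overlapped for the other marker lists. The part of these cell types was not tested.

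Beyond the 9 members, 199 genes of the pathway were listed by role, and 171 of them passed the low-count filter in F3. In F3, 127 of the 171 had a log2 fold change above 0, with a median of 0.14 against 0.00 for all genes. None was called by edgeR at an FDR of 0.1. At an unadjusted p under 0.05, 42 were higher and 7 lower, where 11.0% and 10.0% of all genes were. DESeq2 called 25 higher and 5 lower of the 156 with an adjusted p, against 9.17% and 5.70% of all genes. Without F3 *thia* replicate 2, 99 of 172 were above 0 and the median was 0.07, against 8955 of 18974 and -0.02 for all genes tested. In F1, 104 of 170 were above 0, the median was 0.04, and 9 were higher and 8 lower at an unadjusted p under 0.05, where 4.63% and 4.13% of all genes were. DESeq2 called 1 of the 170 in F1 at an FDR of 0.15, against 1.01% of all genes. This gene was *Nlrx1*, an inhibitor of MAVS signalling, at 18.1 ± 2.38 in control and 24.1 ± 0.467 CPM in *thia* testis (SD, n = 3).

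The interferon-stimulated genes and the genes of antigen presentation had the highest list medians in F3 together with the STAT and IRF factors, an order that changed without F3 *thia* replicate 2. Of 58 other interferon-stimulated genes tested, 50 were above 0, as were 50.6% of all genes, with a median of 0.33. At an unadjusted p under 0.05, 16 were higher and 1 lower, where 11.0% and 10.0% of all genes were. *Gbp7*, a guanylate-binding protein, was at 3.35, 4.26 and 3.67 CPM in control and between 6.41 and 6.75 CPM in *thia* pools (log2 fold change 0.80, edgeR adjusted p = 0.105). *Rtp4*, an interferon-induced transporter protein, was at 3.05 ± 0.207 in control and 5.79 ± 0.981 CPM in *thia* testis (SD, n = 3). *Znfx1*, a helicase that binds viral RNA, was at 29.8 ± 1.30 and 39.8 ± 2.35 CPM (SD, n = 3). In these 3 genes the *thia* pools lay above all control pools, as they did in 13.4% of all genes. Without F3 *thia* replicate 2, 36 of the 58 genes of this list were above 0, against 8955 of 18974 of all genes tested. The median was then 0.11, against -0.02 for all genes, and the log2 fold changes of *Gbp7*, *Rtp4* and *Znfx1* were 0.81, 0.79 and 0.45. In F1, the gene of this list with the smallest p was *Xaf1* (1.81 ± 0.174 CPM in control and 3.07 ± 0.966 CPM in *thia* testis, SD, n = 3, edgeR adjusted p = 0.510).

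Of the 11 genes of antigen presentation, 10 were above 0 in F3, as were 50.6% of all genes, with a median of 0.35. At an unadjusted p under 0.05, 6 were higher and 0 lower, against 11.0% and 10.0% of all genes. DESeq2 called 5 higher, against 9.17% of all genes. *H2-K1*, a classical MHC class I heavy chain, was at 12.8, 9.35 and 14.2 CPM in control and 23.6, 18.9 and 22.6 CPM in *thia* pools. *Tapbp* (tapasin, which loads peptides on class I molecules) was at 43.5 ± 0.848 in control and 63.3 ± 9.12 CPM in *thia* testis (SD, n = 3). *H2-T23*, a non-classical class I gene, had the largest log2 fold change of the list (3.30, edgeR adjusted p = 0.114). Its pools were at 0.527, 2.13 and 0.584 CPM in control and 3.98, 22.5 and 5.84 CPM in *thia* testis, with the highest value in replicate 2 of both groups. Without F3 *thia* replicate 2 its log2 fold change was 2.18 (edgeR adjusted p = 0.0889). The list then had 8 of 11 above 0 and a median of 0.31, against 8955 of 18974 and -0.02 for all genes tested.

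Among the other RNA sensors, 13 of 20 were above 0 in F3, as were 50.6% of all genes, with a median of 0.08. At an unadjusted p under 0.05, 6 were higher and 0 lower, against 11.0% and 10.0% of all genes. *Oasl2*, a member of the oligoadenylate synthetase family, was at 8.34, 9.38 and 8.05 CPM in control and 13.8, 17.0 and 14.6 CPM in *thia* pools, and its edgeR adjusted p was 0.101. *Eif2ak2* (PKR, a kinase that stops translation on double-stranded RNA) was at 20.2 ± 1.73 in control and 26.7 ± 0.580 CPM in *thia* testis (SD, n = 3). *Zbp1*, a sensor of Z-form nucleic acid, was low, at 0.160 ± 0.0469 and 0.558 ± 0.167 CPM (SD, n = 3). The DNA sensors had a median of -0.02 over 12 genes. At an unadjusted p under 0.05, 1 was higher (*Tlr9*) and 1 lower (*Rnaseh2a*), against the same shares of all genes. The medians were 0.08 for the RNA sensors and -0.03 for the DNA sensors without F3 *thia* replicate 2, against -0.02 for all genes.

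The cofactors and signalling proteins between the sensors and the interferon genes had a median of 0.00 over 24 genes. At an unadjusted p under 0.05, 2 were higher and 3 lower, where 11.0% and 10.0% of all genes were. *Trim25*, the ubiquitin ligase that activates RIG-I, was at 59.8 ± 3.13 in F3 control and 74.9 ± 1.56 CPM in F3 *thia* testis (SD, n = 3, DESeq2 adjusted p = 0.0110). *Ywhae* and *Prkra*, which assist RIG-I and PKR, were lower in *thia* than in control pools by log2 fold changes of -0.26 each (DESeq2 adjusted p = 0.0596 and 0.0943). Among 16 inhibitors of sensing, the RNA editing enzyme *Adar*, which marks double-stranded RNA as self, was at 26.2 ± 1.95 and 33.9 ± 1.28 CPM (SD, n = 3), and *Atg5* was lower, at 60.01 ± 1.89 CPM in control and 49.003 ± 0.379 CPM in *thia* testis (SD, n = 3). The median of the inhibitors of sensing was 0.04. Without F3 *thia* replicate 2 it was -0.03, that of the cofactors was -0.05 and that of all genes was -0.02.

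Of the 9 interferon receptors and their kinases, 8 were above 0 in F3, as were 50.6% of all genes, with a median of 0.14. *Ifnar2*, a chain of the type I interferon receptor, was at 40.5 ± 2.49 in control and 51.8 ± 7.27 CPM in *thia* testis (SD, n = 3, edgeR adjusted p = 0.161). Of 10 STAT and IRF factors tested, 8 were above 0 with a median of 0.29. *Irf2*, a factor that competes with other IRF proteins at their sites, was at 7.78, 9.73 and 11.4 CPM in control and 11.9, 14.1 and 14.6 CPM in *thia* pools, with no overlap (log2 fold change 0.48, edgeR adjusted p = 0.177, DESeq2 adjusted p = 0.0596). Of 11 inhibitors of interferon signalling, 8 were above 0 with a median of 0.08. *Usp18*, which removes ISG15 from proteins and dampens the receptor, was at 2.23 ± 0.365 and 3.55 ± 1.21 CPM (SD, n = 3), and the phosphatase gene *Ptpn2* was lower, at 50.1 ± 1.37 and 42.3 ± 0.316 CPM (SD, n = 3). Without F3 *thia* replicate 2, the medians were 0.24 for receptors and kinases and 0.15 for STAT and IRF factors. That of inhibitors of interferon signalling was 0.07, and that of all genes was -0.02. The log2 fold change of *Ifnar2* was then 0.26 (edgeR adjusted p = 0.228) and that of *Usp18* was 0.36.

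**Figure D4:**
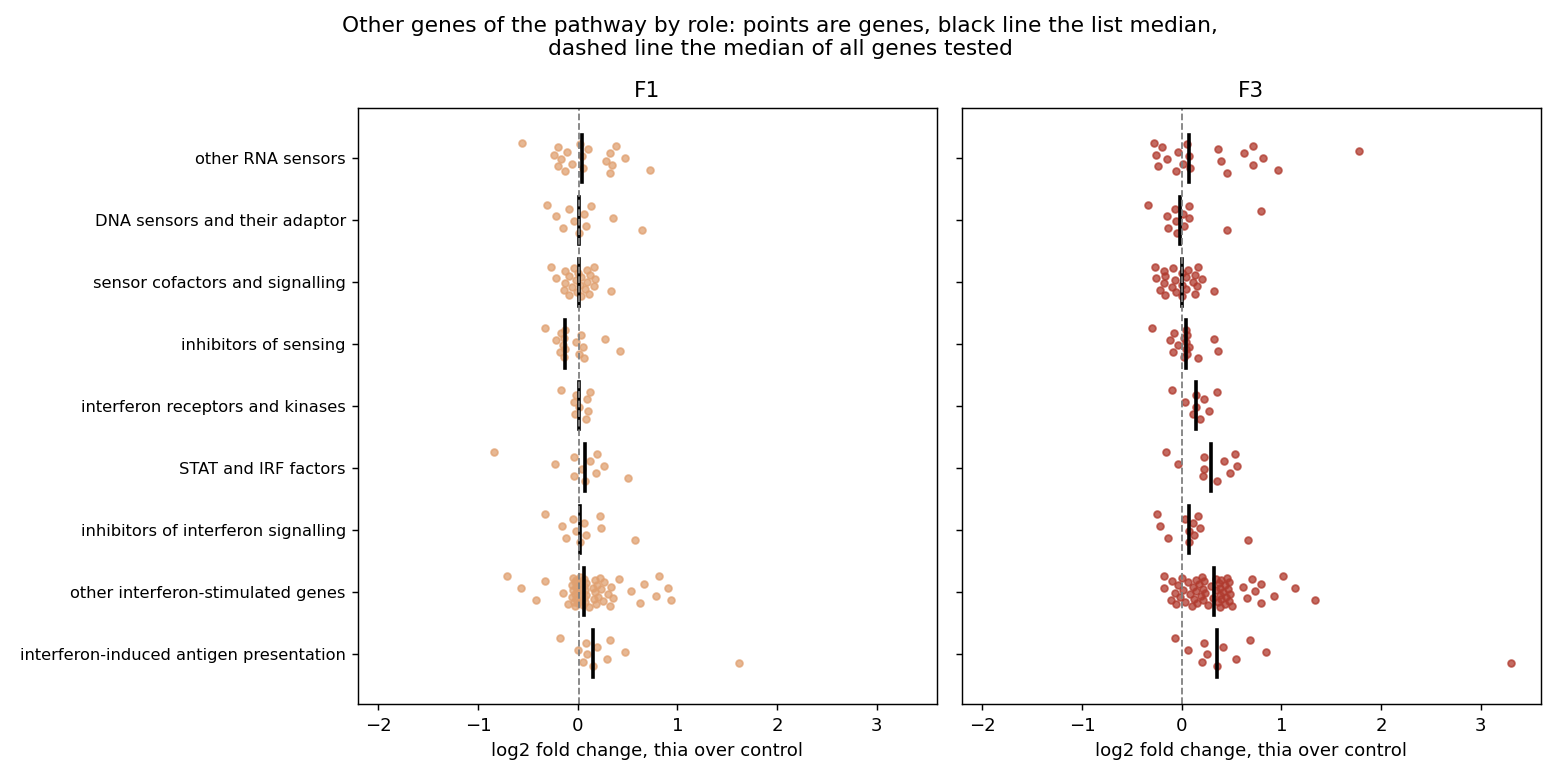
Log2 fold change of *thia* over control testis for the other genes of the pathway by role in F1 (left) and F3 (right), with a point for each gene, a black line for the median of each list and a dashed line for the median of all genes tested. In F3 the medians of the interferon-stimulated genes (0.33), antigen presentation (0.35) and STAT and IRF factors (0.29) lie farthest to the right. Without F3 *thia* replicate 2 (not drawn) they are 0.11, 0.31 and 0.15, and that of all genes is -0.02.

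The interferons themselves were near the limit of detection. Of 21 ligand genes, 11 had 0 counts in every library, 10 had any count and 0 passed the filter on low counts. A count of 0 allows up to 3 counts, or 0.0435 to 0.120 CPM depending on the library, and this limit covers counting error only. *Ifnb1*, the first type I interferon made after RNA sensing in many cells, had 2 counts in F3 *thia* replicate 2 and 0 in the other 11 libraries. The highest count was 7, for the type III interferon *Ifnl2*, which had 4, 17, 3 and 12 counts summed over the F1 control, F1 *thia*, F3 control and F3 *thia* pools. *Ifnl3* had 3, 8, 7 and 8 counts in that order, and *Ifng* had 5, 11, 3 and 3. The other 6 with any count (*Ifna6*, *Ifna13*, *Ifna14*, *Ifnab*, *Ifnk* and *Ifnz*) had at most 4 counts over all 12 libraries. The F1 *thia* pools of *Ifnl2* (0.0749, 0.173 and 0.0913 CPM) lay above the F1 control pools (0.0414, 0.0164 and 0.0371 CPM). So did the F1 *thia* pools of 6.55% of the genes that passed the filter. The *Ifnl2* values rest on 4, 7 and 6 counts against 2, 1 and 1. In F3 the groups overlapped, with 5, 1 and 6 counts in *thia* and 0, 1 and 2 in control pools. No ligand was tested for a difference between groups, since none passed the filter.

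Markers of several cell types moved with the groups. The 12 macrophage markers summed to 159 to 260 CPM in F3 control and 159 to 266 CPM in F3 *thia* pools. Of these, 8 of 12 were above 0, where 50.6% of all genes were, with a median log2 fold change of 0.03. With edgeR 0 of 12 had an unadjusted p under 0.05, against 21.1% of all genes. The 10 markers of other leukocytes summed to 132 to 188 CPM in F3 control pools and 112, 322 and 164 CPM in F3 *thia* replicates 1, 2 and 3. Replicate 2 was also the pool with the highest *Irf7*, *Irf9* and *Isg15*. Among the F3 *thia* pools it also had the highest sum for macrophages (266 CPM). It had the lowest sums there for endothelium (254 CPM), fetal Leydig cells (3968 CPM) and germ cells (409 CPM). Markers of red blood cells summed to 82315 CPM in replicate 2, against 45129 and 49610 CPM in F3 *thia* replicates 1 and 3. Those of Sertoli cells summed to 460 CPM, against 880 and 925 CPM. The 7 endothelial markers summed to 174 to 196 CPM in F3 control and 254 to 306 CPM in F3 *thia* pools, with 7 of 7 above 0. The 6 markers of fetal Leydig cells summed to 2293 to 3763 CPM and 3968 to 7143 CPM, with 6 of 6 above 0. The 9 germ cell markers summed to 604 to 936 CPM and 409 to 739 CPM, with 0 of 9 above 0. No marker of the 5 lists of macrophages, other leukocytes, endothelium, fetal Leydig cells and germ cells was at 0 in all 12 libraries. The F3 groups were thus apart for endothelium and fetal Leydig cells and overlapped for the other 3 of these 5 lists. Of all genes tested, 13.4% had every F3 *thia* pool above every F3 control pool. By edgeR, 6 of 7 endothelial, 3 of 6 fetal Leydig and 5 of 9 germ cell markers had an unadjusted p under 0.05. Of the 8 markers of other leukocytes tested, 0 did, and 21.1% of all genes did. The part of these cell types in the levels of the members was not tested. In F1, the macrophage markers summed to 79.5 to 95.6 CPM in control and 99.1 to 121 CPM in *thia* pools, with no overlap. There 12 of 12 were above 0, where 52.0% of all genes were.

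**Figure D5:**
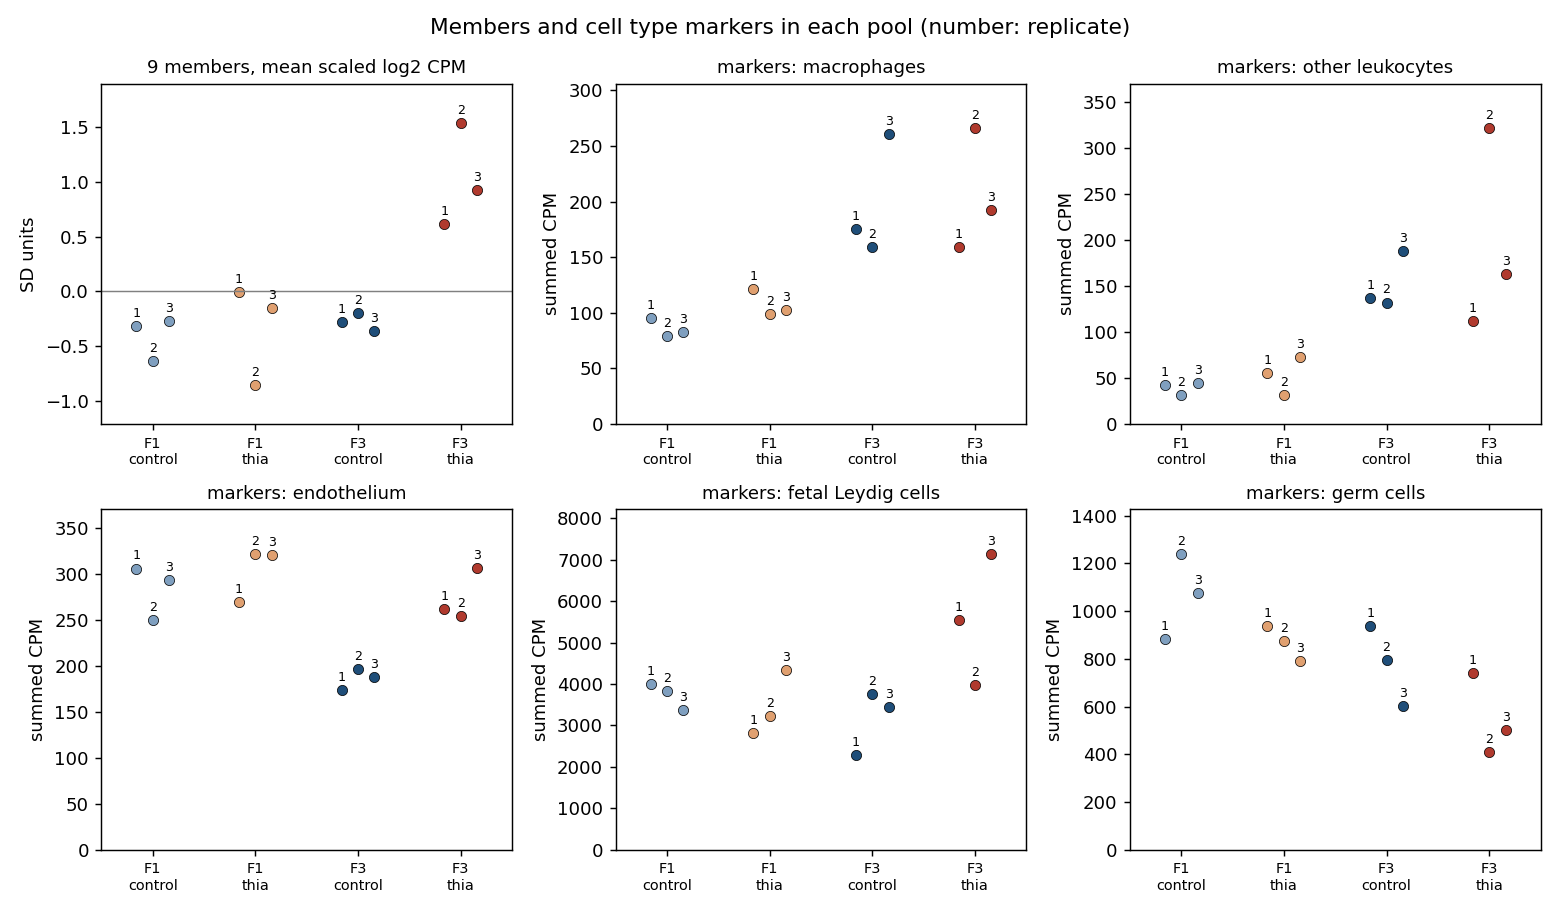
Mean of the 9 members in each pool (log2 CPM of each member scaled to mean 0 and SD 1 over 12 libraries) and summed CPM of the markers of 5 cell types, with a point for each pool and its replicate number. The member mean is 0.61, 1.54 and 0.93 in the F3 *thia* pools, and the endothelial and fetal Leydig markers are also higher in these pools than in the F3 control pools.

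The member mean, as log2 CPM of each member scaled over the 12 libraries, was -0.37 to -0.20 in F3 control and 0.61, 1.54 and 0.93 in F3 *thia* replicates 1, 2 and 3. In F1 it was -0.64 to -0.27 in control and -0.85 to -0.01 in *thia* pools. Over 12 libraries, which share groups and generation, the genes outside the 9 with the highest Pearson r to this mean were *5033417F24Rik* (0.949), *Adra2a* (0.948), *Oasl2* (0.943), *Lce1a1* (0.940), *Pigo* (0.937), *Lhfp* (0.936), *Oas2* (0.935) and *Pdlim3* (0.934) among 19617 genes compared. *Oasl2* and *Oas2* are 2 of the listed pathway genes. Among the 100 genes with the highest r, 16 were listed pathway genes, which made up 0.882% of the genes compared. Over the 11 libraries without F3 *thia* replicate 2, the r of the same 8 genes was 0.872 (*Oas2*) to 0.953 (*Lhfp*), and 9 of the 100 highest were listed pathway genes.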

How the data were processed

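RNA from 12 pools of E15.5 testes was sequenced by the authors with a strand-specific kit as paired-end reads of 100 bases. HISAT2 2.1.0 placed the reads on mm10, and featureCounts assigned them to refGene gene models. What the authors deposited are raw, unscaled counts for each gene symbol, which were aligned as pairs with a reverse-strand setting per the study's methods. The strand and pair settings of featureCounts are not given in the sources used here.

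Counts were tested in R 4.3.3 with edgeR 4.0.16 (TMM, filterByExpr at a minimum count of 10, quasi-likelihood test, Benjamini-Hochberg adjustment over all genes tested), at the FDR of the study, 0.15 in F1 and 0.1 in F3. Fits across generations used an FDR of 0.1. DESeq2 1.42.0 was the alternative tool. Standard errors were derived from the edgeR test, log2 CPM used a prior count of 2, and p-values measure the spread between pools. The scripts were tested on simulated data with 200 changed genes. Members, lists, tests and the alternatives were chosen with earlier results of these data known. Named are all 9 members, the pathway genes with the smallest p in each role list (up to 3 in F3 and 1 in F1), every ligand with a count, and the 8 genes most like the member mean, apart from results that are not reported here. *Rnf31*, *Phrf1* and *Dhx58os* are named because their exons overlap a member. An FDR of 0.15 in F3, and the lists and the likeness without F3 *thia* replicate 2, were added after the values were seen.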

Additional observations from a re-analysis of the deposited data

Results flagged for a closer look

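*Ddx58* differed in direction between the generations. All 3 *thia* pools lay below all control pools in F1 and above all control pools in F3, and the difference of the log2 fold changes, F3 minus F1, was 0.74 (standard error 0.144). It did not pass an FDR of 0.1 with edgeR (adjusted p = 0.248) and passed with DESeq2 (adjusted p = 0.00189). Over 18 alternatives the difference ranged from 0.66 to 0.80, and the adjusted p from 0.00189 to 0.521. The F3 control pools were also below the F1 control pools (log2 difference -0.34, edgeR adjusted p = 0.0246). The cause was not tested.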

How the results depend on the processing

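In F3, edgeR called 0 of the 9 members (0% of all genes). DESeq2 called 6 (14.9% of all genes), the joint fit of 12 libraries called 4 (*Ddx58*, *Stat2*, *Irf7* and *Irf9*, 9.86%), and a single member was called with upper quartile scaling (1, *Irf9*, 2.80%), without the filter (1, *Irf9*, 1.85%) and with a minimum of 10 counts per library (1, *Ddx58*, 1.94%). An FDR of 0.15, chosen after seeing the data, called 4 (9.85%). In the same fits, and so against the same shares, of the other pathway genes edgeR called 0 in F3, DESeq2 30, the joint fit 30, the fit without a filter 10, upper quartile scaling 11, the minimum of 10 counts per library 6 and the FDR of 0.15 called 26. DESeq2 called 1 pathway gene in F1 (1.01% of genes) and 2 members in the difference of effects (4.74%). Leaving out each pool in turn, the members called ranged from 0 to 2 in F3 (2 without F3 *thia* replicate 2, 6.82% of genes), from 0 to 0 in F1 and in the difference of effects, and from 3 to 6 between the controls (6 without F3 *thia* replicate 2), where 30.9% to 43.3% of genes were called. Pathway genes called ranged from 0 to 12 in F3 (12 without F3 *thia* replicate 2) and from 0 to 0 in F1. The members' median log2 fold change ranged from 0.47 to 0.55 in F3 and from -0.061 to 0.38 in F1, where it was negative without F1 *thia* replicate 1. The cause of these changes was not tested.

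Replicate numbers are shared by the groups but did not pair the pools. The correlations of same-numbered pools were -0.04, -0.04 and 0.03 in F1 and 0.19, -0.37 and -0.24 in F3. Those of control and *thia* pools with unlike numbers were -0.08 to 0.11 in F1 and -0.37 to 0.46 in F3. With the replicate block edgeR called 0 members in F1, 0 in F3 and 0 in the difference of effects, 5 between the controls (37.6% of genes), and 0 pathway genes in either generation, with member medians of 0.17 and 0.48. No scaling moved the median of all genes by over 0.1 on the log2 scale. *Ifit1*, with 7 to 52 counts per pool, and the ligands are the values most limited by depth.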
